A study of Mus musculus with 4 samples.

Results

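Intestinal absorption of dietary fat was followed through 10 genes, chosen by name for their roles in fatty acid binding, triglyceride synthesis and chylomicron assembly: Mttp, Apob, Apoa1, Apoa4, Apoc3, Fabp1, Fabp2, Fabp6, Dgat1 and Dgat2. All 10 were found among the 55487 genes of the deposited tables, and all 10 passed the filter on low counts that left 14165 genes for testing. The cells were Lgr5-EGFP-positive stem cells from crypts of untreated mice aged 6 to 12 weeks, all of the genotype Lgr5-EGFP-IRES-creERT2, in which a green fluorescent protein and an inducible Cre are made under the control of the stem cell gene Lgr5. The small-intestinal group (SISC) was also gated as CD24-negative, while for the large-intestinal group (LISC) only the reporter is named. Each group held 2 poly(A)-selected RNA libraries, and the labels do not say whether these came from separate animals, so each p-value rests on the spread of these libraries alone, which may be technical.

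In enterocytes, the absorptive cells of the small intestine, fatty acids taken up from the lumen are carried by small fatty acid-binding proteins to the endoplasmic reticulum and built into triglyceride, whose last step is made by the acyltransferases DGAT1 and DGAT2. The microsomal triglyceride transfer protein, MTTP, loads this fat onto apolipoprotein B, and the particle leaves the cell as a chylomicron that also carries apolipoproteins A-I, A-IV and C-III. Fat absorption takes place mainly in the small intestine. The genes are textbook markers of differentiated cells, whereas the libraries were made from cells sorted for a stem cell reporter.

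Total expected counts per library ran from 12795434 to 27227715. Ribosomal RNA genes took 31.8% and 36.6% of counts in replicate 1 of SISC and LISC and 0.246% and 0.304% in replicate 2, so differences within each replicate number are given beside the pooled ones. Lgr5 was present in all 4 libraries, at 18.2 and 48.8 TPM (RSEM's length-scaled abundance) in SISC and 22.2 and 26.2 TPM in LISC. Markers of Paneth cells, the secretory neighbours of small-intestinal stem cells, were abundant in SISC: the 9 genes of that list summed to 22030 and 4752 TPM in SISC replicates 1 and 2 and to 85.9 and 79.1 TPM in LISC. In bulk RNA, fewer cells of a type and less RNA per cell cannot be told apart.

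The 250 bases before the start site of the Fabp1, Fabp2 and Fabp6 genes are shown first. These genes are members of 1 protein family, and their values are given further on. A link between sequence and level was not tested. The sequences are from RefSeq (GRCm38.p6), written on the strand of the gene, and capitals mark matches to any of the motifs named after them.

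Fabp1 (chr6:71199629-71199878, plus strand): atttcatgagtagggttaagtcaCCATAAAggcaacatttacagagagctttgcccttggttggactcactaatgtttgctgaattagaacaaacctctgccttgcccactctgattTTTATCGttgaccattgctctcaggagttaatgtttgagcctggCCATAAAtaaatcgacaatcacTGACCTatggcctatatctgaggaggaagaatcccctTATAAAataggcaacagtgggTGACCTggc

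Fabp2 (chr3:122894822-122895071, plus strand): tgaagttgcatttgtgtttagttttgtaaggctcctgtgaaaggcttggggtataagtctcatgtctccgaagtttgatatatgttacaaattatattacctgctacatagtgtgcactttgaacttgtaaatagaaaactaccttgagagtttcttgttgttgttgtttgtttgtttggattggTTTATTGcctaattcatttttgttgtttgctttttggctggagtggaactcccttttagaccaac

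Fabp6 (chr11:43601563-43601812, minus strand): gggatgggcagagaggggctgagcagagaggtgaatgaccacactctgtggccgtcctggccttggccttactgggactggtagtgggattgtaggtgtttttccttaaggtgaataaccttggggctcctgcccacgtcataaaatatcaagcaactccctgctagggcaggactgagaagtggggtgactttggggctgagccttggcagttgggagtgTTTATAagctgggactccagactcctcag

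The search covered both strands for 2 GATA elements (AGATAA and TGATAA), a nuclear receptor half-site (AGGTCA), its direct repeat (AGGTCANAGGTCA), an HNF1 palindrome (GTTAATNATTAAC), a CDX element (TTTATNG), an HNF4-selective element (AAAGTCC) and a TATA box (TATAAA). The Fabp1 window held 3 matches to the CDX element, at positions −227, −133 and −89 from the start site, 2 nuclear receptor half-sites at −67 and −9, and a TATA box at −30. Fabp2 held 1 CDX element, at −65, and Fabp6 a TATA box on the opposite strand at −29. Of all 32851 promoter windows of this length, 9.81% held the CDX element, 14% the half-site and 12.4% the TATA box. RefSeq windows existed for 7 of the 10 genes. Besides those of the Fabp genes, only the window of Apob held a match, a TATA box at −60 that overlaps a CDX element at −61. A match is a run of letters and not evidence that a factor binds. The annotations place some starts differently: relative to the RefSeq start, the GENCODE start lies at −52 for Fabp1, at 22 for Fabp6 and at −29 for Apob. For the windows without a match it lies at −50 for Apoa1, at −148 for Apoa4 and at −1550 for Mttp, so a window need not sit at the start in use.

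Mttp, Apoa4 and Dgat1 were higher in the small-intestinal cells, by 26.2-fold, at least 63.3-fold and 4.21-fold, and the other 7 genes did not pass the test. Across all genes tested, edgeR's quasi-likelihood test placed 0.741% on the SISC side and 1.45% on the LISC side at an adjusted p below 0.05. Of the 10 genes, 3 passed with the higher level in SISC and 0 with the higher level in LISC. Apoa1, Apoa4 and Apoc3 had at most 11 counts in a LISC library and passed the filter on low counts through SISC alone. They could thus be tested only as genes high in SISC, which bears on each count given here. At an unadjusted p below 0.05, edgeR placed 7 of the 10 on the SISC side, against 4.67% of all genes, and 0 on the LISC side, against 8.73%. Some other settings called more of the 10 on the SISC side: DESeq2 called 6 (2.47% of all genes it tested), edgeR called 7 once low counts were no longer filtered out (1.94%), and limma-trend called 5 on log2(TPM + 1) (0.87%) and 5 on log2(TPM + 0.1) (0.914%). The median log2 difference of the 10 genes, LISC minus SISC, was −2.57, against −0.02 over all genes tested, and it was −2.49 within replicate 2. Within replicate 1, where Apoa1, Apoa4 and Apoc3 had 0 counts in LISC and stand at their bound against 3 counts, it was −2.77. Both SISC libraries were above both LISC libraries for 7 of the 10 genes, which was so for 18.4% of all genes tested. The reverse held for 1, Dgat2, and for 21.9% of all genes. The 10 genes were chosen with earlier results of these data known, so these shares are a description and not independent support.

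**Figure D1:**
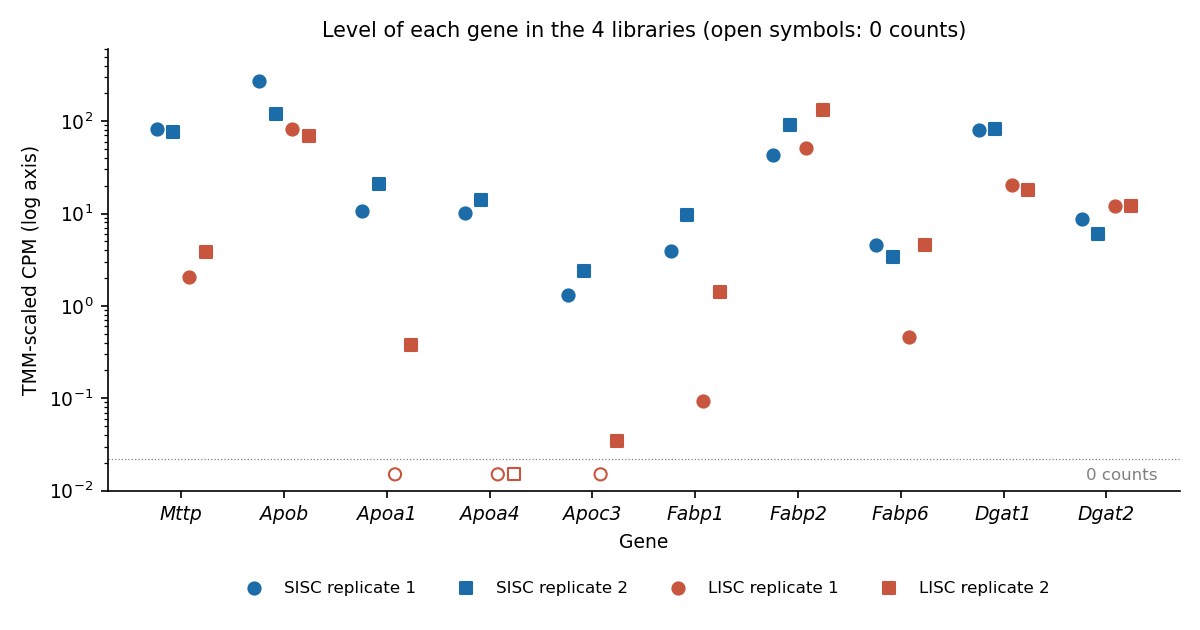
Level of each of the 10 genes in the 4 libraries, as TMM-scaled CPM on a log axis. Circles are replicate 1, squares replicate 2, blue SISC and red LISC, and open symbols under the dotted line are libraries with 0 counts. Apoa4 had 0 counts in both LISC libraries, while Fabp2 and Fabp6 are the genes whose groups overlap.

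Mttp (ENSMUSG00000028158; chromosome 3, 138089854 to 138144968, minus strand, GRCm38), which encodes the transfer protein without which apolipoprotein B is degraded unlipidated, stood at 81.9 and 75.5 CPM (counts per 1000000 of the TMM-scaled library total) in SISC replicates 1 and 2. In LISC it stood at 2.04 and 3.82 CPM, from 22 and 111 counts. The 2 SISC libraries lay close together and far above both LISC libraries. The log2 difference, LISC minus SISC, was −4.71 ± 0.41 (SE; edgeR adjusted p = 0.0202), and −5.33 and −4.31 within replicates 1 and 2. Its call held under all 12 alternatives, with the log2 difference between −5.25 and −3.47. The annotation has an Mttp transcript of 3963 bases from a downstream start and one of 3072 bases from an upstream start, and the abundance-weighted length that RSEM gave was 3919 and 3906 bases in SISC and 3856 and 3483 bases in LISC. A retained-intron model of 2012 bases starts farthest upstream. The RefSeq promoter window is not at the start of the transcript of 3963 bases and is not shown. Trmt10a, on the opposite strand, shares 1521 bases with the upstream end of Mttp and had 99 and 256 counts in SISC and 50 and 149 in LISC, more than Mttp in LISC. Whether strand was used in counting is unknown here, so reads from the shared stretch are uncertain. The antisense gene Gm43691, which lies within Mttp, had 0 counts in each library.

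Apob (ENSMUSG00000020609; chromosome 12, 7977648 to 8016835, plus strand), the structural protein of the chylomicron and the partner of MTTP, was read at 273 and 119 CPM in the SISC libraries and 83.1 and 68.4 CPM in the LISC libraries. All 4 libraries held it well above the counting floor, at 897 to 3818 counts, and the groups did not overlap. The log2 difference of −1.37 ± 0.48 did not pass the test (edgeR adjusted p = 0.304), but did with no filter on low counts (0.0287). On the length-scaled TPM scale Apob was 1.57 and 1.35 times as abundant as Mttp in the SISC libraries, and 30.5 and 11.2 times in the LISC libraries. With 2 libraries against 2, a complete separation such as this one has an exact two-sided permutation p of 0.333, the smallest that the design allows.

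The order of the SISC libraries for Apob depended on the scale used. Between the SISC libraries its CPM was 0.436 times as high in replicate 2 as in replicate 1, but its TPM went from 24.4 to 32.3. RSEM's weighted length for Apob was 7963 bases in SISC replicate 1 and 4530 bases in SISC replicate 2, against 5074 and 5462 bases in LISC. The annotation holds Apob transcripts of 13934, 13369, 2174 and 1118 bases, so these lengths are mixtures of long and short models. TPM also carries no TMM scaling, so length is not the only difference between the scales. Apoa4, with 1 annotated transcript, went from 4.59 to 10.07 TPM in SISC, while its CPM in replicate 2 was 1.38 times that in replicate 1. In LISC the TPM of Apob was 10.7 and 16.5. The 2 SISC libraries were above both LISC libraries on either scale.

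Apoa1, Apoc3 and Apoa4 lie next to each other on chromosome 9, with Apoa5 farther along, in a stretch of 43.3 kb, and all 3 had at most 11 counts in a LISC library. Apoa4 (ENSMUSG00000032080; 46240696 to 46243459, plus strand), the apolipoprotein whose secretion accompanies fat absorption, had 139 and 448 counts in SISC and 0 in both LISC libraries. That was 10.1 and 14.0 CPM against a floor of 3 counts per library, so that Apoa4 was at least 63.3-fold higher in SISC (adjusted p = 0.0264, edgeR). Its call held under all 12 alternatives.

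Apoa1 (ENSMUSG00000032083; 46228580 to 46230466, plus strand), the main protein of high-density lipoprotein and a chylomicron surface protein, had 146 and 660 counts in SISC and 0 and 11 in LISC. In CPM these were 10.6 and 20.6 in SISC and 0 and 0.378 in LISC. The groups were far apart, but the log2 difference of −5.99 ± 0.99 missed the threshold (edgeR adjusted p = 0.0635). Within replicate 2 the log2 difference was −5.77, and within replicate 1, where LISC had no count, it was −5.26 against the floor of 3 counts. Its adjusted p was below 0.05 under 8 of the 12 alternatives and 0.0939 without SISC replicate 2.

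Apoc3 (ENSMUSG00000032081; 46232933 to 46235636, minus strand), an inhibitor of triglyceride clearance from blood, had 18 and 76 counts in SISC and 0 and 1 in LISC. The ratio of pooled counts, scaled to library size, was 81.9 in favour of SISC with an exact 95% interval of 14.4 to 3270, which covers counting error only. Apoc3 did not pass the test (edgeR adjusted p = 0.0847). Of the alternatives that tested it, 6 did not call it and 5 did, among them DESeq2 (adjusted p = 0.00525) and limma-trend on log2(TPM + 1) (0.0016). The SISC libraries of Apoc3, at 1.31 and 2.37 CPM, were the lowest SISC levels of the 10 genes on this scale. Apoa5, the last gene of this stretch and a regulator of lipoprotein lipase, had 0 counts in both SISC libraries and 0 and 2 counts in LISC. The antisense gene Gm10680, which overlaps Apoa4, had 0 counts in each library.

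Of the enzymes of the last step of triglyceride synthesis, Dgat1 passed the test and Dgat2 did not. Dgat1 (ENSMUSG00000022555; chromosome 15, 76502015 to 76511953, minus strand), the acyltransferase that acts on fat absorbed by the gut, was read at 79.9 and 82.7 CPM in the SISC libraries and 20.6 and 18.1 CPM in the LISC libraries. The libraries of each group lay close together, and the groups were separate. The log2 difference was −2.07 ± 0.25 (edgeR adjusted p = 0.0348), a 4.21-fold difference, and −1.96 and −2.19 within replicates 1 and 2. The call was lost without SISC replicate 2 (edgeR adjusted p = 0.0522), without LISC replicate 1 (0.0934), without LISC replicate 2 (0.167) and with limma-trend on TPM (0.357 and 0.384), while the log2 difference stayed between −2.23 and −1.97.

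Dgat2 (ENSMUSG00000030747; chromosome 7, 99153658 to 99182719, minus strand), a structurally unrelated enzyme of the same reaction that is prominent in liver and fat tissue, was read at 8.66 and 5.97 CPM in the SISC libraries and 12.1 and 12.0 CPM in the LISC libraries. The LISC libraries were both above the SISC libraries, with a log2 difference of 0.73 ± 0.32 that did not pass (edgeR adjusted p = 0.457). Per length, Dgat1 was 17.2 and 23.9 times as abundant as Dgat2 in SISC and 2.94 and 2.35 times in LISC. Dgat1 was thus the more abundant of the pair in each library.

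**Figure D2:**
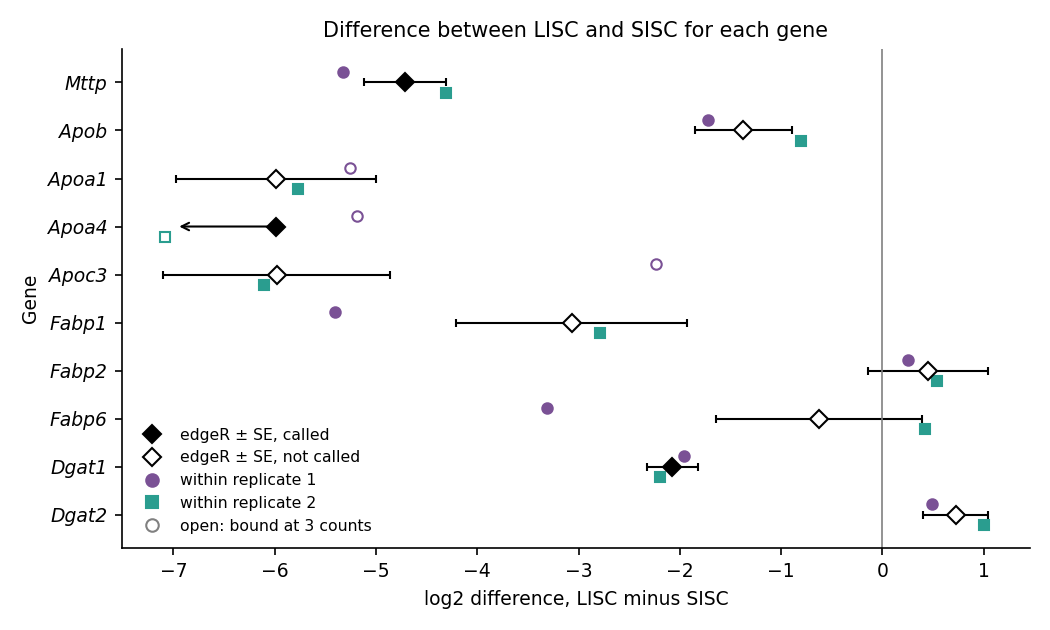
Log2 difference, LISC minus SISC, for each of the 10 genes. Diamonds are the edgeR estimate with its SE (filled where called), with Apoa4 drawn at its bound and an arrow, circles and squares are the differences within replicates 1 and 2, and open circles and squares are bounds against 3 counts. Mttp, Apoa4 and Dgat1 are filled, and Fabp2 and Dgat2 lie to the right of 0.

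None of the 3 fatty acid-binding protein genes passed edgeR's test, and their libraries were ordered differently. Fabp1 (ENSMUSG00000054422; chromosome 6, 71199827 to 71205023, plus strand), the liver-type protein that also carries fatty acids in the proximal gut, was read at 3.93 and 9.75 CPM in the SISC libraries and 0.0927 and 1.41 CPM in the LISC libraries, from 1 and 41 counts. Both SISC libraries were above both LISC libraries, but LISC replicate 2 was 15.2 times as high as LISC replicate 1. The log2 difference of −3.07 ± 1.14 did not pass (edgeR adjusted p = 0.342), and was −5.41 and −2.79 within replicates 1 and 2. DESeq2 called it (adjusted p = 0.0299), as did limma-trend on either TPM scale.

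Fabp2 (ENSMUSG00000023057; chromosome 3, 122895072 to 122899506, plus strand), the intestinal-type protein, was read at 42.9 and 90.2 CPM in the SISC libraries and 51.2 and 131 CPM in the LISC libraries. The groups overlapped, and replicate 2 was above replicate 1 in both, by 2.10 times in SISC and 2.56 times in LISC. The log2 difference was 0.45 ± 0.59 (edgeR adjusted p = 0.951), and it was 0.26 and 0.54 within replicates 1 and 2. Per length, Fabp2 was 4.06 and 4.40 times as abundant as Fabp1 in SISC. In LISC the ratio was 242 and 44.3, the first of these resting on a single Fabp1 count. The antisense gene 4933405D12Rik, which spans Fabp2, had 0 counts in each library.

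Fabp6 (ENSMUSG00000020405; chromosome 11, 43596049 to 43601540, minus strand), the bile acid-binding protein of the ileum, was read at 4.58 and 3.41 CPM in SISC replicates 1 and 2, and at 0.463 and 4.57 CPM in LISC, from 5 and 133 counts. LISC replicate 2 was at the level of the SISC libraries, and 9.87 times as high as LISC replicate 1. The pooled log2 difference was −0.62 ± 1.02 (edgeR adjusted p = 0.968), and the differences within replicates 1 and 2 had opposite signs, −3.31 and 0.42. Without LISC replicate 1 the log2 difference was 0.20, and without LISC replicate 2 it was −3.08.

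Ordered by mean TPM, Fabp2 and Dgat1 led in both groups. TPM carries no TMM scaling, so its spread and sums across replicates 1 and 2, here and elsewhere, also hold differences of scale. Fabp2, with 1 annotated transcript, went from 44.9 to 135 TPM in SISC, while its CPM in replicate 2 was 2.10 times that in replicate 1. In SISC, Fabp2 stood at 90.0 ± 63.9 TPM and Dgat1 at 67.2 ± 18.7 TPM (SD, n = 2), and their ranges overlapped. Apob followed at 28.3 ± 5.57 TPM, below Dgat1 in both libraries. From Apob through Fabp1, Mttp and Apoa1 to Fabp6, at 15.8 ± 3.42 TPM, the range of each gene overlapped that of the next. Apoa4 and Apoc3, at 7.33 ± 3.88 and 7.30 ± 2.30 TPM, overlapped each other and were below Fabp6. Dgat2 was the lowest, at 3.25 ± 0.170 TPM.

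In LISC, Fabp2 stood at 127.9 ± 119 TPM, and every other gene of the 10 was below both of its libraries. Dgat1 at 14.3 ± 4.19 TPM, Apob at 13.6 ± 4.14 TPM and Fabp6 at 10.3 ± 12.9 TPM overlapped. The 10 genes summed to 191 and 367 TPM in SISC and to 71.1 and 280 TPM in LISC. The 3 Fabp genes made up 38.7% and 48.9% of that sum in SISC and 63.2% and 84.5% in LISC, while the 3 apolipoprotein genes of chromosome 9 made up 10.6% and 13.0% in SISC and 0% and 0.258% in LISC. Most of the sum in LISC was Fabp2.

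The other genes of the pathway were read from 7 lists around the 10 genes, and most of their genes did not pass the test. Of 17 chylomicron assembly and transport genes tested, 0 were called by edgeR in either direction, while 2 had an unadjusted p below 0.05 and DESeq2 called 2, all on the SISC side. The median log2 difference was 0.10, and the difference was positive for 13 of these genes and negative for 4. P4hb, the disulfide isomerase that is the second subunit of the MTTP complex, was read at 157 and 236 TPM in the SISC libraries and 138 and 375 TPM in the LISC libraries. Surf4, a cargo receptor of lipoprotein export, was read at 40.9 and 56.8 TPM in the SISC libraries and 39.8 and 90.8 TPM in the LISC libraries. In TPM both genes overlapped between the groups, while in CPM both LISC libraries were above both SISC libraries for Surf4 (edgeR adjusted p = 0.813).

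The 2 largest differences on this list, in Creb3l3 and Tm6sf2, missed the threshold. Tm6sf2, which aids the lipidation of apolipoprotein B, was read at 13.4 and 13.2 TPM in the SISC libraries and 0.19 and 1.46 TPM in the LISC libraries (log2 −4.31 ± 0.65; edgeR adjusted p = 0.0522). Creb3l3, a membrane-bound factor that activates apolipoprotein genes, had 84 and 92 counts in SISC and 1 and 0 in LISC, a ratio of pooled counts of 153 with an exact 95% interval of 27.2 to 6093 (edgeR adjusted p = 0.0846). Apobec1, the editing enzyme that shortens the apolipoprotein B message in the gut, was read at 1.11 and 2.59 TPM in the SISC libraries and 0.45 and 1.29 TPM in the LISC libraries (edgeR adjusted p = 0.558).

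The called genes of the uptake list handle sterols. Of 13 fatty acid and sterol uptake genes tested, 3 passed on the SISC side and 0 on the LISC side, where edgeR gave 4 an unadjusted p below 0.05 and DESeq2 called 3. Npc1l1, the cholesterol importer of the brush border, was read at 4.95 and 3.85 TPM in the SISC libraries and 0.05 and 0.19 TPM in the LISC libraries, 40.1-fold higher in SISC (adjusted p = 0.0293, edgeR). Abcg5 and Abcg8, the subunits of the sterol exporter, were 19.2-fold and 33.5-fold higher in SISC (adjusted p = 0.0461 and 0.0218, edgeR), the call of Abcg5 being lost without SISC replicate 2 (log2 −4.01; adjusted p = 0.0569). Abcg5 was read at 7.31 and 16.95 TPM in the SISC libraries and 0.16 and 1.14 TPM in the LISC libraries.

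None of the genes of fatty acid entry and activation in this list was called by edgeR. Acsl5, an acyl-CoA synthetase of the gut, was read at 18.2 and 54.7 TPM in the SISC libraries and 19.3 and 39.1 TPM in the LISC libraries (log2 −0.26; edgeR adjusted p = 0.904). Slc27a2, a fatty acid transporter with synthetase activity, was read at 31.9 and 85.1 TPM in the SISC libraries and 14.9 and 28.5 TPM in the LISC libraries (log2 −1.40; edgeR adjusted p = 0.128). Cd36, a fatty acid receptor of mature enterocytes, had at most 14 counts in a library and was not tested. On the LISC side, the sterol and lipoprotein receptor gene Scarb1 (log2 1.99; edgeR adjusted p = 0.0540), the sterol efflux gene Abca1 (1.95; 0.196) and the acyl-CoA synthetase genes Acsl4 (1.59; 0.227) and Acsl3 (1.24; 0.155) had both LISC libraries above both SISC libraries and did not pass. The list's median log2 difference was 0.17.

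Of 14 triglyceride and sterol ester synthesis genes tested, edgeR called 1, Soat2, the enzyme that esterifies cholesterol for chylomicrons. Soat2 was read at 5.74 and 7.71 TPM in the SISC libraries and 0.20 and 0.82 TPM in the LISC libraries, 14.3-fold higher in SISC (adjusted p = 0.0360, edgeR). In the list, 3 genes had an unadjusted p below 0.05 by edgeR and DESeq2 called 3, all on the SISC side. Mogat2, the monoacylglycerol acyltransferase that starts resynthesis in the enterocyte, was read at 3.62 and 3.45 TPM in the SISC libraries and 0.41 and 0.77 TPM in the LISC libraries and did not pass (log2 −2.65; edgeR adjusted p = 0.0968). The most abundant genes of the list were Dbi, an acyl-CoA-binding protein, at 357 and 793 TPM in SISC and 227 and 682 TPM in LISC, and Agpat1, an earlier acyltransferase, at 33.9 and 30.4 TPM in SISC and 28.9 and 40.2 TPM in LISC. The list's median log2 difference was −0.02.

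Of 12 lipid droplet and lipolysis genes tested, 0 were called by edgeR and 1 by DESeq2, 3 had an unadjusted p below 0.05, and the median log2 difference was 0.04. Pnpla2, the first lipase of stored fat, was read at 61.9 and 96.3 TPM in the SISC libraries and 47.9 and 86.6 TPM in the LISC libraries, and Plin2, a droplet coat protein, at 30.8 and 68.8 TPM in SISC and 21.1 and 58.8 TPM in LISC. In TPM both overlapped between the groups, while in CPM both SISC libraries were above both LISC libraries for Pnpla2 (edgeR adjusted p = 0.927). Of 5 other apolipoprotein genes tested, 0 were called by edgeR, 3 had an unadjusted p below 0.05 and DESeq2 called 3, in each case 2 on the SISC side and 1 on the LISC side, with a median log2 difference of 0.92. That median was −3.74 with a minimum count of 50, and between 0.06 and 1.33 with 1 library left out. Apoc2, the cofactor of lipoprotein lipase, had 91 and 187 counts in SISC and 0 and 5 in LISC (log2 −5.74 ± 0.97; edgeR adjusted p = 0.0657). Apoe, a ligand of lipoprotein receptors, was read at 7.82 and 13.9 TPM in the SISC libraries and 1.49 and 5.18 TPM in the LISC libraries (edgeR adjusted p = 0.161).

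**Figure D3:**
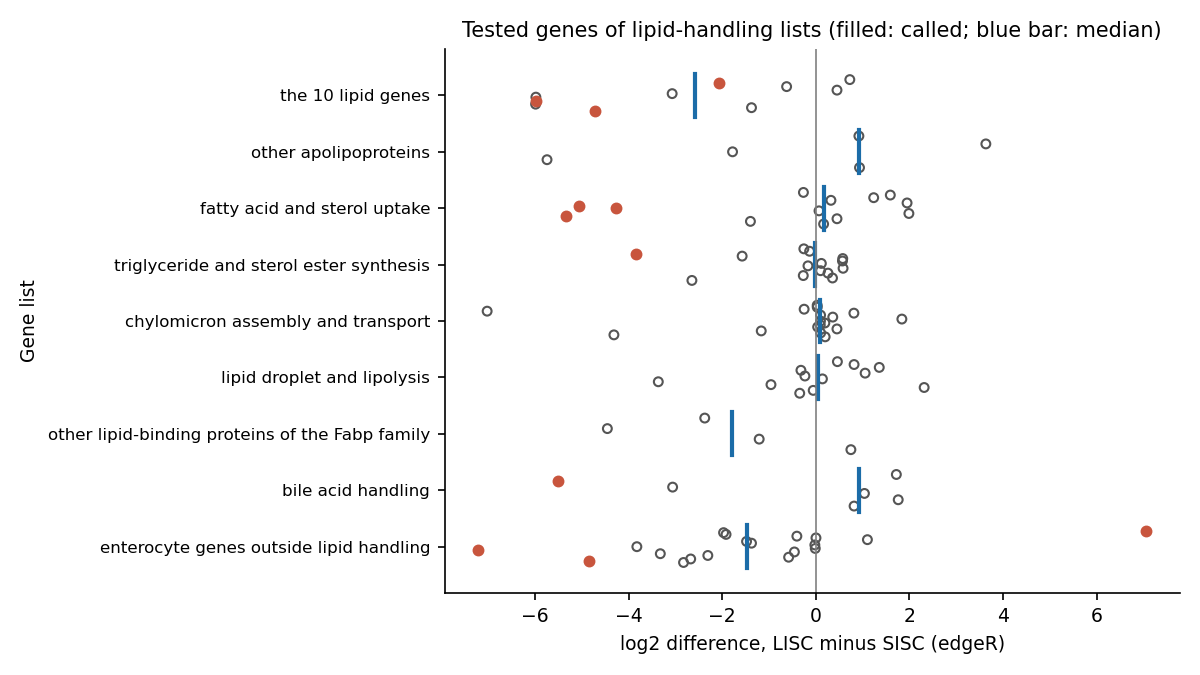
Log2 difference, LISC minus SISC, of each tested gene for the 10 lipid genes and 8 other lists, with called genes filled and the median as a blue bar. Genes with 0 counts in a group are drawn at their bound against 3 counts per library, and Creb3l3, with 1 count in LISC, at its fitted value. The medians of the uptake, synthesis, assembly and droplet lists lie around 0, with single genes far to the left and others to the right. In the uptake list, Npc1l1 and Abcg8 lie to the left and Scarb1 and Abca1 to the right.

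The wider family of small lipid-binding proteins was mostly silent. Of 12 genes listed, 4 passed the filter and 0 were called by edgeR, with 2 at an unadjusted p below 0.05 and 1 called by DESeq2. Their median log2 difference was −1.79. Rbp2, the retinol-binding protein of enterocytes, had 96 and 293 counts in SISC and 0 and 18 in LISC (log2 −4.45 ± 1.15; edgeR adjusted p = 0.165). Fabp5, the epidermal type, was read at 7.32 and 9.25 TPM in the SISC libraries and 8.42 and 19.4 TPM in the LISC libraries (log2 0.75; edgeR adjusted p = 0.370). Fabp3, Fabp7 and Fabp9 had 0 counts in each library, and Fabp4, the protein of fat cells and macrophages, had 2 counts in LISC replicate 2 and 0 elsewhere.

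Fabp6 works with the ileal uptake of bile acids, and that list was read for the same libraries. Of 6 bile acid handling genes tested, 1 was called, Abcc2, an apical exporter of conjugates, which was 45.2-fold higher in SISC, at 6.62 and 7.56 TPM against 0.46 and 0.42 TPM (edgeR adjusted p = 0.0167). The median log2 difference of this list was 0.93. An unadjusted p below 0.05 was reached by 2 on each side with edgeR, and DESeq2 called 2 on the SISC side and 1 on the LISC side. Slc10a2, the ileal bile acid importer, had 3 and 12 counts in SISC and 1 and 16 counts in LISC and was not tested. Nr1h4, the bile acid receptor that activates Fabp6, was read at 4.42 and 11.8 TPM in the SISC libraries and 7.97 and 26.3 TPM in the LISC libraries (log2 1.04; edgeR adjusted p = 0.370). Slc51a and Slc51b, the subunits of the basolateral exporter, were read in LISC at 1.70 and 9.79 TPM and at 1.70 and 10.3 TPM. In all 3 of these genes LISC replicate 2 was the highest library, as it was for Fabp6 in TPM. Abcc3, a basolateral exporter, was read at 9.09 and 16.2 TPM in the SISC libraries and 26.1 and 50.7 TPM in the LISC libraries and missed the threshold (edgeR adjusted p = 0.0790).

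Of 24 factor genes known to act at enterocyte lipid genes, 2 passed on the SISC side and 1 on the LISC side, with a median log2 difference of −0.05. An unadjusted p below 0.05 was reached by 4 on the SISC side and 3 on the LISC side with edgeR, and DESeq2 called 3 and 2. Gata4 and Gata5, zinc finger factors of the small intestine, were read at 39.8 and 43.8 TPM and at 15.9 and 18.2 TPM in SISC. In LISC Gata4 had 1 and 3 counts, and Gata5 was read at 0.47 and 0.99 TPM (edgeR adjusted p = 0.0155 and 0.0167). Pparg, a nuclear receptor of fat metabolism, went the other way, at 1.25 and 3.94 TPM in SISC and 22.1 and 63.0 TPM in LISC, 15.8-fold higher in LISC (adjusted p = 0.0267, edgeR). Hnf4a, a nuclear receptor that activates Mttp and apolipoprotein genes, was read at 201 and 219 TPM in the SISC libraries and 93.5 and 149 TPM in the LISC libraries (log2 −0.94 ± 0.39; edgeR adjusted p = 0.418). Cdx1, an intestinal homeobox factor, was read at 87.1 and 124 TPM in the SISC libraries and 102 and 218 TPM in the LISC libraries.

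The summed levels of some marker lists were apart between the groups and those of others overlapped. The part of these cells in the differences above was not tested. Of 22 enterocyte genes outside lipid handling, 19 were tested, of which edgeR called 2 on the SISC side and 1 on the LISC side, with a median log2 difference of −1.48. An unadjusted p below 0.05 was reached by 10 on the SISC side and 1 on the LISC side, and DESeq2 called 8 and 1. The median was −0.57 with a minimum count of 50 and −0.44 and −0.45 with limma-trend on log2(TPM + 1) and log2(TPM + 0.1). The list summed to 507 and 887 TPM in SISC and to 279 and 648 TPM in LISC. Both SISC libraries were above both LISC libraries for 15 of the 22, against 18.4% of all genes tested. The reverse held for 2, against 21.9%. The 15 include Slc15a1 and Slc6a19 and the 2 include Tmigd1, which did not pass the filter on low counts. Sis, the sucrase-isomaltase of the brush border, was read at 9.08 and 5.26 TPM in the SISC libraries and 0.19 and 0.37 TPM in the LISC libraries (edgeR adjusted p = 0.0431), and Mme, a membrane peptidase, had 259 and 1036 counts in SISC and 4 and 2 in LISC (edgeR adjusted p = 0.0269). Clca4a, a chloride channel accessory gene, was 134-fold higher in LISC (adjusted p = 0.0240, edgeR). Vil1, a general epithelial gene of the list that encodes the brush border protein villin, was present in both groups, at 88.8 and 125 TPM in SISC and 73.0 and 147 TPM in LISC.

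All 9 Paneth markers had both SISC libraries above both LISC libraries, against 18.4% of all genes tested. All 9 also had an unadjusted p below 0.05 by edgeR on the SISC side, against 4.67%, and DESeq2 called 8 of them. By edgeR 1, Defa30, was called (adjusted p = 0.0431), and the call was lost with DESeq2 size factors (0.0505). Their summed TPM was higher in SISC replicate 1. In CPM, Apob, Dgat2, Fabp6 and Mttp were also higher in SISC replicate 1, with replicate 2 at 0.436 to 0.922 times its level, and the other 6 of the 10 genes were higher in SISC replicate 2, at 1.03 to 2.48 times. Mttp and Apoa4 were called both without SISC replicate 1 and without SISC replicate 2. Goblet markers summed to 2677 and 1244 TPM in SISC and to 2512 and 14200 TPM in LISC, and 0 of 8 were called by edgeR, with 2 at an unadjusted p below 0.05 and 3 called by DESeq2 on the LISC side. LISC replicate 2, with the highest goblet sum, was also the LISC library with the higher Fabp1, Fabp2 and Fabp6. In TPM it also had the higher LISC sum of enterocyte genes outside lipid handling, 648 against 279. The tuft, enteroendocrine and stem cell sums were higher there as well, but not the Paneth sum. The part of these cells in those values was not tested.

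Liver also makes apolipoproteins and Mttp, so hepatocyte markers were read as well. Alb, Fga, Fgb and Fgg had 0 counts in both SISC libraries, and Alb had 4 and 26 counts in LISC. The list's sum of 5.33 and 40.9 TPM in SISC came almost wholly from Cyp2e1, a cytochrome P450, at 4.87 and 40.4 TPM. In LISC the sum was 0.48 and 1.46 TPM. Cyp2e1, the only gene of the list tested, had 148 and 1785 counts in SISC and 0 in both LISC libraries. It was not called by edgeR (adjusted p = 0.0756), while DESeq2 called 1 gene of the list, on the SISC side. Immune and stromal markers were low, with sums of at most 5.57 and 2.61 TPM in a library, and 0 of 3 and 0 of 1 tested were called by edgeR or DESeq2, with 1 immune gene and 0 stromal genes at an unadjusted p below 0.05. The 10 stem cell markers summed to 2588 and 6500 TPM in SISC and to 280 and 433 TPM in LISC, of which Olfm4 alone gave 2130 and 5602 TPM in SISC, and edgeR called 2 of them on the SISC side (Olfm4 and Tnfrsf19), of which Olfm4 was lost without LISC replicate 1 (adjusted p = 0.0622) and both without LISC replicate 2 (0.106 and 0.0705). Of the stem cell markers, 5 had an unadjusted p below 0.05 by edgeR and DESeq2 called 5, all on the SISC side. Tuft cell markers summed to 5.16 and 2.07 TPM in SISC and to 19.8 and 47.1 TPM in LISC, and edgeR called 0 of the 4 tested, with 3 at an unadjusted p below 0.05 and 3 called by DESeq2 on the LISC side. Enteroendocrine markers summed to 116 and 39.1 TPM in SISC and to 73.8 and 255 TPM in LISC, and edgeR called 1 of 10 on the SISC side (Gip, an incretin) and 1 on the LISC side (Sct, secretin, lost without SISC replicate 2 at an adjusted p of 0.0694).

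**Figure D4:**
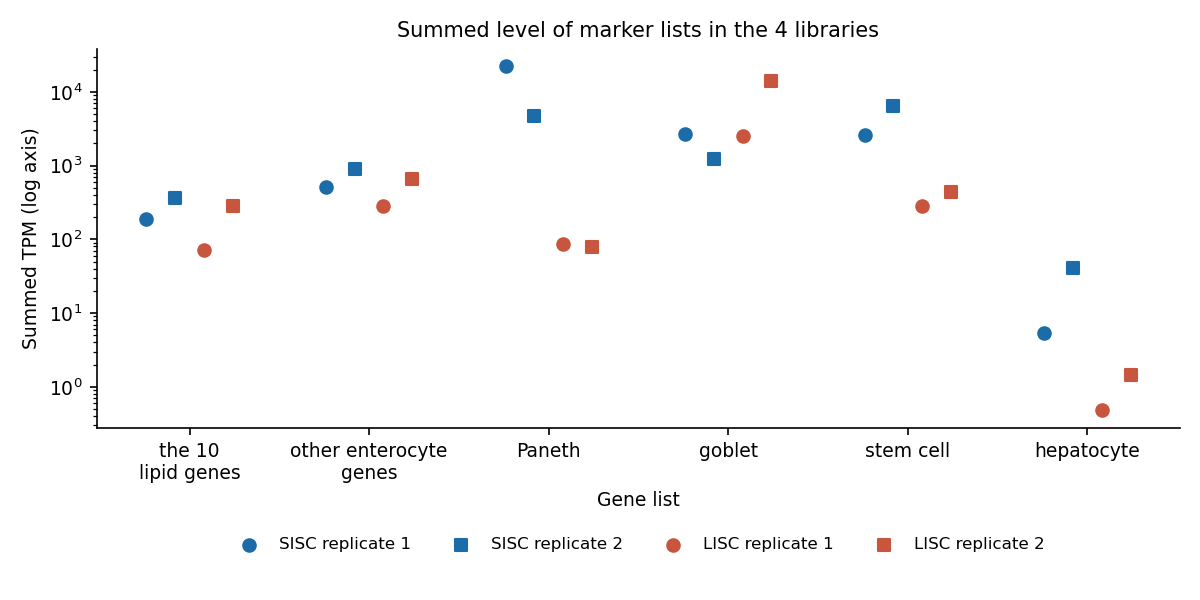
Summed TPM of the 10 lipid genes and of 5 marker lists in each library, on a log axis, with SISC in blue, LISC in red, replicate 1 as circles and replicate 2 as squares. The Paneth sum was 22030 and 4752 TPM in SISC against 85.9 and 79.1 TPM in LISC, and the goblet sum was highest in LISC replicate 2, at 14200 TPM.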

How the data were processed

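Libraries were made from poly(A) RNA with a strand-marking kit, per the labels' protocols. Per the submitters' processing notes, STAR 2.7.2b and RSEM 1.2.31 were used with GRCm38 (mm10), while neither annotation release nor strand setting is given in the sources used here. Deposited by the authors were expected counts from RSEM, which divide reads that fit several genes, and TPM, scaled by effective length. RSEM's deposited standard deviation of the count was 0 for each of the 10 genes. Gene identifiers were matched to GENCODE vM21 (55141 of 55487).

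Expected counts were rounded and tested with edgeR 4.0.16 in R 4.3.3 (quasi-likelihood test, TMM factors, group as the only term, filterByExpr at its minimum count of 10), and p-values were adjusted by Benjamini-Hochberg over 14165 genes. Standard errors are the log2 difference divided by the square root of F. Folds against 0 counts use 3 counts per library. Depth per library was 12795434 to 27227715 counts, where 3 counts are 0.0937 to 0.278 CPM. Alternatives used DESeq2 1.42.0, limma 3.58.1, other filters and scalings, a replicate block, and each library left out.

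The 10 genes and all lists were chosen with earlier results of these data known. Named from each other list were up to 4 called genes with a mean TPM of at least 1 and the 2 most abundant genes; not all of these are reported here. Apobec1, Cd36, Creb3l3, Mogat2, Tm6sf2, Slc10a2, Slc51a, Slc51b, Scarb1, Abca1, Acsl3, Acsl4, Apoa5, Fabp3, Fabp4, Fabp7, Fabp9 and the hepatocyte genes Alb, Fga, Fgb and Fgg were named after their values were seen. Vamp7 was not matched to a gene.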

Additional observations from a re-analysis of the deposited data

How the results depend on the processing

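Mttp and Apoa4 were called under all 12 alternatives, and no alternative called any of the 10 genes higher in LISC. The number of the 10 called higher in SISC was 3, and became 6 with DESeq2 (background 2.47%), 7 with no filter on low counts (1.94%), 7 with the replicate block (3.7%), 5 with limma-trend on log2(TPM + 1) (0.87%) and 5 on log2(TPM + 0.1) (0.914%). With 1 library left out, 1 group rests on a single library, and only the change in the median of the 10 genes is given for that case below. Genes called higher in LISC and SISC over the whole table were 206 and 105, against 779 and 389 with DESeq2, 942 and 465 with no filter, and 1015 and 524 with the replicate block. Leaving out 1 library gave 166 to 338 higher in LISC and 79 to 149 for SISC. For the 10 genes the median log2 difference was −2.57, against −2.06 with a minimum count of 50 (which drops Apoc3), −3.11 with log2(TPM + 0.1) and −4.165 to −2.196 with 1 library left out. Under the replicate block, Apob, Apoa1, Apoc3 and Fabp1 joined the 3 calls. Same-numbered libraries share only a number in the labels, and the correlation of their deviations from the group means was 0.666. Signs changed in 8 named genes, 0 of them called. Leaving out 1 library moved Fabp2 between −0.368 (without LISC replicate 2) and 1.051, Fabp6 between −3.075 and 0.198 (without LISC replicate 1), Dbi between −0.677 and 0.246, Agpat1 between −0.265 and 0.555, P4hb between −0.064 and 0.480, Chgb between −1.834 and 0.628, Vim between −2.636 and 0.071, and Vil1 between −0.103 and 0.086. Without LISC replicate 1, Dbi was 0.075 and Agpat1 −0.181. Vil1, at 0.004, was −0.026 with DESeq2, −0.025 with its size factors, −0.019 without rRNA genes, −0.004 with no filter, −0.024 and −0.025 with limma-trend, and −0.005 without LISC replicate 2. The cause was not tested. The medians of the uptake, synthesis, droplet and factor lists changed sign between settings and stayed between −0.267 and 0.293. Over both LISC libraries, Apoa4 had 0 counts, Apoc3 1, Apoa1 11 and Fabp1 42.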
